A study of Homo sapiens and Mus musculus with 24 samples.

Results

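The genes described here are 9 members of the antioxidant programme of the transcription factor NRF2: NFE2L2, which encodes NRF2 itself, GCLC, GCLM, TXNRD1, SRXN1, NQO1, HMOX1, ME1 and OSGIN1. They were chosen by name, with their levels in these data already known, and all 9 were found among the 58051 genes of the human tables and, by the same names, among the 29307 genes of the mouse tables. Their values across the groups are therefore given as a description, with the spread between libraries and no test of their own.

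In unstressed cells NRF2 is bound by KEAP1, which presents it to a CUL3 ubiquitin ligase for degradation. Electrophiles and oxidants modify KEAP1, and NRF2 then enters the nucleus, pairs with a small MAF protein and binds antioxidant response elements. Its targets make glutathione, reduce thioredoxin and peroxiredoxins, detoxify quinones, degrade heme and supply NADPH, and in the gut they are known for protecting the epithelium from dietary and microbial electrophiles.

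RNA was sequenced from Caco-2, an established colorectal adenocarcinoma line that forms an enterocyte-like monolayer, and from colonic epithelial cells of mice. The Caco-2 groups were the unmodified line (WT, 4 libraries), a DNMT3A knockout made with CRISPR/Cas9 (ΔDNMT3A, 4 libraries), and that knockout carrying a transgene for either of the isoforms of the DNA methyltransferase DNMT3A, labelled DNMT3A1 (3 libraries; the remaining replicate is not analysed here) and DNMT3A2 (4 libraries). According to the study's methods the knockout was grown from single cells and each re-expressing line is a puromycin-selected clone with a tagged isoform on a piggyBac vector, so in every Caco-2 comparison genotype and clone cannot be told apart. The mouse groups were Dnmt3a fl/fl (4 animals) and Dnmt3a ΔIEC (4 animals), adult mice at steady state that all carry the floxed Dnmt3a allele on C57BL/6. The ΔIEC animals carry in addition a Cre driven by the Villin promoter, which is active in epithelium along the whole intestine. EpCAM+ colonic cells were sorted from both. The study's methods give the Cre line a mixed background that includes SJL/J, and baseline mice of both sexes. Whether the groups differ in sequence from that strain was not tested. Nothing in the labels says that the Caco-2 replicates came from separate cultures, so the spread between them may be technical.

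The Caco-2 libraries held 22104408 to 42161299 counts on genes and the mouse libraries 16943626 to 24921248. Levels are given below in CPM, counts scaled to library size with TMM factors within a species. The targeted gene in WT was at 63.7, 61.99, 67.2 and 65.7 CPM and in ΔDNMT3A at 22.3, 20.7, 20.6 and 19.3 CPM. In DNMT3A1 it was at 36.7, 39.1 and 38.3 CPM, between the other lines. In the libraries labelled DNMT3A2 it was at 20.2, 22.3, 23.5 and 21.7 CPM, overlapping the knockout. DNMT3A mRNA thus did not separate these libraries from the knockout, and the line is named below by its label throughout. The study reported re-expression of either isoform as protein, by immunoblot and by immunofluorescence in the nuclei. Protein was not measured in these libraries. Dnmt3a was at 84.7 to 102 CPM in Dnmt3a fl/fl and 41.7 to 49.6 CPM in Dnmt3a ΔIEC. All 7 epithelial markers had counts in every group of both species. In Caco-2 the summed level of the 4 absorptive colonocyte markers was 15.2 to 18.2 CPM in ΔDNMT3A against 1.70 to 2.18 in WT, 2.33 to 2.68 in DNMT3A1 and 1.66 to 3.63 in the line labelled DNMT3A2. The part of this shift in the values below was not tested.

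Antioxidant response elements share the core TGACNNNGC, and the following stretches of the members' promoters are shown because they hold it. RefSeq promoters (GRCh38.p14, 250 bases before to 50 after a transcription start) were given for 8 of the 9 members, in 10 windows, and were searched on both strands. The core was found in 4 of these 10 windows, belonging to GCLM, TXNRD1 and ME1, whereas 13.3% of all 35116 promoters of that length hold it. Each line reads 5′ to 3′ on the strand of the gene, with the match in capitals; GCNNNGTCA is the same core on the opposite strand.
ME1 (chr6:83431170-83431198, first base of the match 137 bases before the start): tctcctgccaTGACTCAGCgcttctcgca
GCLM (chr1:93909446-93909474, 34 bases before the start): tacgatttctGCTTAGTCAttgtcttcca
TXNRD1, first start (chr12:104215670-104215698, 99 bases before the start): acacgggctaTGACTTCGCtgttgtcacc
TXNRD1, first start (chr12:104215761-104215789, 8 bases before the start): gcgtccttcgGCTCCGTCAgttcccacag
TXNRD1, second start (chr12:104286920-104286948, 102 bases before the start): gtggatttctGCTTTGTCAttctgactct
A further match began 12 bases after the start of ME1. The windows of NFE2L2, GCLC, SRXN1, NQO1 and OSGIN1 do not hold these letters; enhancers further away were not searched, and no binding was measured in these libraries.

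Within the Caco-2 lines the members spanned a wide range of levels. Per kilobase of exon (RPKM), ME1, the cytosolic malic enzyme that yields NADPH, was highest in all 4 lines, at 121 ± 3.05 RPKM in WT (mean ± SD, n = 4), followed by NQO1 at 90.6 ± 2.72. SRXN1 was lowest in all 4 lines, at 1.62 ± 0.130 RPKM in WT. The order of the other members was the same in every line except for TXNRD1 and HMOX1: TXNRD1 stood above HMOX1 in WT and DNMT3A1, and below it in ΔDNMT3A and in the line labelled DNMT3A2.

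**Figure D1:**
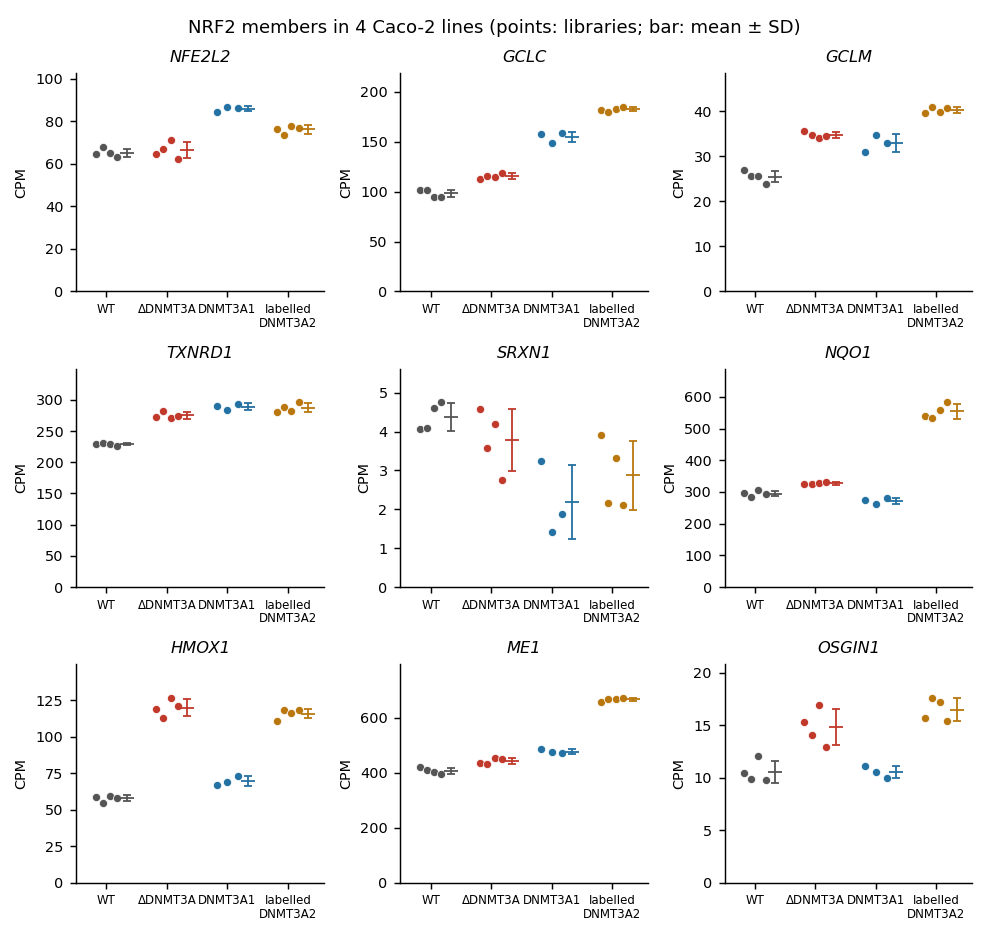
Level in CPM (y axis, from 0) of each member in WT, ΔDNMT3A, DNMT3A1 and the line labelled DNMT3A2; each point is a library and the bar is the mean ± SD. HMOX1 and OSGIN1 were high in ΔDNMT3A and the line labelled DNMT3A2 and low in the other lines, while NQO1 and ME1 stood apart in the line labelled DNMT3A2.

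NFE2L2 (chr2:177227595-177392697, minus strand, GRCh38) encodes the regulator itself. Its level was 64.6, 67.9, 65.2 and 63.1 CPM in WT, 64.9, 66.9, 71.5 and 62.5 in ΔDNMT3A, 84.6, 87.01 and 86.2 in DNMT3A1 and 76.2, 73.6, 78.1 and 76.9 in the line labelled DNMT3A2. WT and ΔDNMT3A overlapped, both lines labelled with an isoform lay above them, and DNMT3A1 was the highest. The log2 fold change was 0.02 ± 0.04 (± SE) in ΔDNMT3A against WT, 0.37 ± 0.04 in DNMT3A1 against ΔDNMT3A and 0.20 ± 0.04 in the line labelled DNMT3A2 against ΔDNMT3A. NFE2L2 mRNA is a poor measure of NRF2 activity, since the protein is set mainly by degradation, and these libraries measure RNA only.

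KEAP1, the sensor that holds NRF2 in check, fell in DNMT3A1. It was at 75.5 to 82.4 CPM in WT, 72.1 to 76.3 in ΔDNMT3A, 59.8 to 64.4 in DNMT3A1 and 72.95 to 75.6 in the line labelled DNMT3A2. The DNMT3A1 libraries lay below all others, and the log2 fold change from ΔDNMT3A was -0.27 ± 0.04 (adjusted p = 7.82e-06; every adjusted p here comes from edgeR's quasi-likelihood F test and is Benjamini-Hochberg corrected across the whole table). Against WT, KEAP1 also fell in ΔDNMT3A, by 0.08 ± 0.03. There the groups overlapped and the adjusted p was 0.0318. In the Caco-2 comparisons such a p is set against the spread between libraries of a line, and not that between separate clones.

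GCLC and GCLM encode the catalytic and the modifier subunit of glutamate-cysteine ligase, the rate-limiting enzyme of glutathione synthesis. GCLC (chr6:53497341-53616970, minus strand) was at 101, 102, 94.9 and 94.99 CPM in WT and 113, 116, 115 and 119 in ΔDNMT3A. It reached 157, 148 and 158 CPM in DNMT3A1 and 182, 180.0, 182 and 185 in the line labelled DNMT3A2. No 2 lines overlapped, and the order from low to high was WT, ΔDNMT3A, DNMT3A1 and the line labelled DNMT3A2, with log2 fold changes against WT of 0.23 ± 0.03, 0.65 ± 0.03 and 0.88 ± 0.03.

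GCLM (chr1:93885205-93909456, minus strand) did not follow GCLC in DNMT3A1. It was at 27.04, 25.6, 25.6 and 23.8 CPM in WT, 35.7, 34.7, 34.01 and 34.5 in ΔDNMT3A, 30.9, 34.9 and 33.02 in DNMT3A1 and 39.5, 41.1, 39.9 and 40.6 in the line labelled DNMT3A2. WT was below and the line labelled DNMT3A2 above all other libraries, whereas ΔDNMT3A and DNMT3A1 overlapped. From ΔDNMT3A to DNMT3A1 the catalytic subunit thus changed by 0.42 ± 0.03 on the log2 scale and the modifier subunit by -0.08 ± 0.05.

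TXNRD1 (chr12:104215779-104350305, plus strand) encodes cytosolic thioredoxin reductase. It was at 229.8, 230.2, 229 and 227 CPM in WT, 273, 283, 271 and 275 in ΔDNMT3A, 291, 283 and 294 in DNMT3A1 and 281, 289, 283 and 297 in the line labelled DNMT3A2. All libraries of the 3 modified lines lay above WT, by 0.26 ± 0.03, 0.34 ± 0.03 and 0.31 ± 0.02 on the log2 scale. Among these 3 lines the differences were small, 0.07 ± 0.03 in DNMT3A1 and 0.06 ± 0.02 in the line labelled DNMT3A2 against ΔDNMT3A, and the line labelled DNMT3A2 overlapped both others.

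SRXN1 (chr20:646615-653370, minus strand) encodes sulfiredoxin, which repairs over-oxidised peroxiredoxins. It was the least abundant member, with 37 to 192 counts in a library, at 4.06, 4.10, 4.59 and 4.76 CPM in WT and 4.59, 3.58, 4.19 and 2.76 in ΔDNMT3A. In DNMT3A1 it was at 3.25, 1.42 and 1.89 CPM and in the line labelled DNMT3A2 at 3.91, 2.17, 3.33 and 2.11 CPM. WT was above both lines labelled with an isoform, ΔDNMT3A overlapped all 3 other lines, and the SD within a line reached 0.953 CPM. Its log2 fold change against WT was -0.21 ± 0.12 in ΔDNMT3A, -0.997 ± 0.17 in DNMT3A1 and -0.63 ± 0.14 in the line labelled DNMT3A2. It was the single member with a negative value against WT in all 3 modified lines.

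NQO1 (chr16:69706996-69726951, minus strand) encodes the quinone reductase that is the usual marker gene of NRF2. It was at 296, 284, 305 and 295 CPM in WT, 324, 323, 329 and 330.0 in ΔDNMT3A, 274, 262 and 279.6 in DNMT3A1 and 539, 534, 559 and 584 in the line labelled DNMT3A2. No 2 lines overlapped: DNMT3A1 was lowest, then WT, then ΔDNMT3A, and the line labelled DNMT3A2 was 1.86 times WT. The lines labelled with an isoform thus lay on opposite sides of the knockout, by -0.26 ± 0.03 in DNMT3A1 and 0.76 ± 0.03 in the line labelled DNMT3A2 on the log2 scale.

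HMOX1 (chr22:35380361-35394214, plus strand) encodes heme oxygenase 1, which opens the heme ring and is induced by heme and oxidants. It was at 58.7, 54.8, 59.7 and 57.8 CPM in WT and 119, 113, 127 and 121 in ΔDNMT3A, a log2 fold change of 1.04 ± 0.04, the largest of any member in this comparison. It was at 66.9, 68.8 and 73.2 CPM in DNMT3A1 and 111, 118, 117 and 118 in the line labelled DNMT3A2. The latter overlapped ΔDNMT3A, while DNMT3A1 lay close to WT but above it, at 0.27 ± 0.04 against WT and -0.78 ± 0.04 against ΔDNMT3A.

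OSGIN1 (chr16:83948282-83966332, plus strand), an oxidative stress-induced growth inhibitor, was, like HMOX1, high in ΔDNMT3A and in the line labelled DNMT3A2, at a lower level per length. It was at 10.4, 9.82, 12.1 and 9.80 CPM in WT, 15.3, 14.1, 16.9 and 12.96 in ΔDNMT3A, 11.1, 10.5 and 9.95 in DNMT3A1 and 15.7, 17.6, 17.2 and 15.4 in the line labelled DNMT3A2. The lines fell into 2 pairs that overlapped within and not between them, WT with DNMT3A1 and ΔDNMT3A with the line labelled DNMT3A2. The log2 fold change was 0.48 ± 0.08 in ΔDNMT3A against WT and -0.50 ± 0.08 in DNMT3A1 against ΔDNMT3A.

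ME1 (chr6:83210389-83431071, minus strand) was at 419, 409, 402 and 395 CPM in WT, 433, 431, 454 and 448 in ΔDNMT3A, 485, 474 and 470.4 in DNMT3A1 and 658, 668, 667 and 673 in the line labelled DNMT3A2. No 2 lines overlapped, in the same order as for GCLC. The steps from WT to ΔDNMT3A and from ΔDNMT3A to DNMT3A1 were small, 0.11 ± 0.03 and 0.11 ± 0.03 on the log2 scale, and that from ΔDNMT3A to the line labelled DNMT3A2 was 0.59 ± 0.02.

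**Figure D2:**
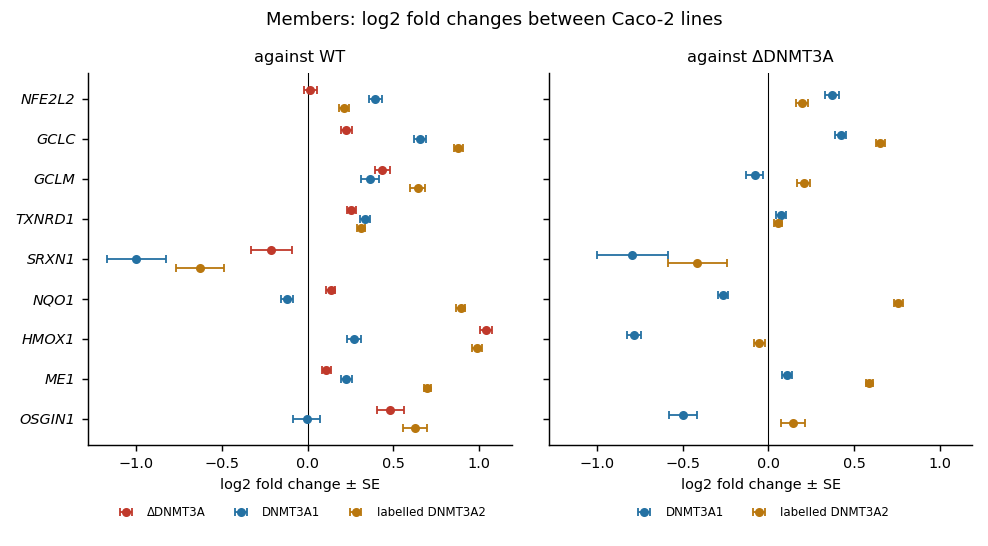
Log2 fold change (x axis; points, with bars for ± SE) of each member (y axis) against WT on the left and against ΔDNMT3A on the right; comparisons in a panel share their control libraries. Against WT the line labelled DNMT3A2 ran from -0.63 for SRXN1 to 0.99 for HMOX1, and against ΔDNMT3A the DNMT3A1 line was lower for NQO1, HMOX1 and OSGIN1 and higher for NFE2L2 and GCLC.

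These values stand against a background in which most genes differed between any 2 of the Caco-2 lines, and the members were chosen with these values known, so that their counts are given beside that background only. In ΔDNMT3A against WT, 7 of 9 members had an adjusted p under 0.05, all of them higher, where 62.2% of all genes tested passed, 31.2% as higher and 31% as lower. The median log2 fold change was 0.23 over the members and -0.00494 over all genes tested. When a log2 change of 1 or more was asked for as well, HMOX1 was the single member to pass, beside 8.51% of all genes. In the line labelled DNMT3A2 against WT, 9 of 9 passed, 8 higher and 1 lower, beside 68.7% of all genes, 34.3% higher and 34.4% lower. The median was 0.64 over the members and -0.00317 over all genes. The groups did not overlap for any of the 9, nor for 62.2% of all genes tested.

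In DNMT3A1 against WT, 8 of 9 passed, 6 higher and 2 lower, beside 65.3% of all genes, 32.6% higher and 32.7% lower, with a median of 0.27. Against ΔDNMT3A, the members split in DNMT3A1 into 4 higher and 4 lower, beside 60.7% of all genes passing, 30.4% higher and 30.3% lower, with a median of -0.08. In the line labelled DNMT3A2 against ΔDNMT3A, 6 were higher and 1 lower beside 67.9% of all genes, 33.8% higher and 34.1% lower, with a median of 0.20. The number past the threshold ran from 5 to 8 of 9 under the other settings tried, and the members that crossed it were TXNRD1, SRXN1, OSGIN1 and HMOX1. Compared directly, DNMT3A1 was lower than the line labelled DNMT3A2 for 6 members and higher for NFE2L2 alone, beside 68.5% of all genes, 33.9% lower and 34.5% higher, with a median of -0.38. Replicates 1 and 2 of each line were sequenced on a different lane from replicates 3 and 4, of which DNMT3A1 has replicate 4 alone. All 46 member values past the threshold had the same sign in both lanes. The calls came from these same libraries, so this is a description and no independent check.

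Single libraries moved some of these values. For SRXN1 in DNMT3A1 the log2 fold change against ΔDNMT3A was -0.79 with all libraries and -1.18 without DNMT3A1 replicate 1, and that against the line labelled DNMT3A2 was -0.38 and -0.78, passing without that library and not with all of them. The latter value was -0.18 without DNMT3A1 replicate 2 and -0.21 without replicate 1 of the line labelled DNMT3A2. For SRXN1 in ΔDNMT3A against WT the value was -0.21 with all libraries, -0.09 without ΔDNMT3A replicate 4, and -0.33 without ΔDNMT3A replicate 1, where it passed. In the line labelled DNMT3A2 against ΔDNMT3A, SRXN1 was at -0.41 with all libraries; it no longer passed without replicate 2 or 4 of the line labelled DNMT3A2 (-0.32 and -0.27) or without replicate 1 or 3 of ΔDNMT3A (-0.29 and -0.38). In the same comparison HMOX1 passed without ΔDNMT3A replicate 2 (-0.08), and OSGIN1 passed without replicate 4 of the line labelled DNMT3A2 (0.18) or without ΔDNMT3A replicate 3 (0.20). TXNRD1 passed against ΔDNMT3A with all libraries and lost the call without any of 5 libraries in either comparison, at 0.06 without DNMT3A1 replicate 4 and 0.04 without replicate 4 of the line labelled DNMT3A2. With all libraries kept, TXNRD1 also lost the call in both comparisons with the DESeq2 Wald test and with no filter. SRXN1 in the line labelled DNMT3A2 against ΔDNMT3A lost its call with the DESeq2 Wald test and with the 4 Caco-2 groups in 1 fit.

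Because the lines are clones, each member was also set beside the 25 tested genes on either side of it along its chromosome. Across all genes, the middle 90% of such medians ran from -0.30 to 0.28 in ΔDNMT3A against WT and from -0.36 to 0.28 in the line labelled DNMT3A2 against WT. For DNMT3A1 the range was -0.25 to 0.30 against ΔDNMT3A and -0.36 to 0.52 against WT. In the line labelled DNMT3A2 against WT the neighbours of HMOX1, GCLC, GCLM, ME1 and NQO1 had medians of -0.04, 0.08, 0.02, 0.06 and 0.32, beside member values of 0.99, 0.88, 0.64, 0.70 and 0.89. The distance was not kept in every comparison: in DNMT3A1 against WT HMOX1 was at 0.27 beside 0.27, and in DNMT3A1 against ΔDNMT3A ME1 was at 0.11 beside 0.19.

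The genes around OSGIN1 on chromosome 16 had medians of the same sign as OSGIN1, 0.31 in ΔDNMT3A against WT, -0.30 in DNMT3A1 against ΔDNMT3A and 0.41 in the line labelled DNMT3A2 against WT, beside 0.48, -0.50 and 0.63 for OSGIN1 itself. Those around NQO1, on the same chromosome, had medians of 0.20, -0.33 and 0.32 in these comparisons, beside 0.14, -0.26 and 0.89 for NQO1. For SRXN1, near the end of chromosome 20, the 34 neighbours had a median of -0.22 in ΔDNMT3A and -0.59 in the line labelled DNMT3A2 against WT, beside -0.21 and -0.63. For NFE2L2 the neighbours' median was 0.31 in DNMT3A1 against ΔDNMT3A and 0.22 in the line labelled DNMT3A2 against WT, beside 0.37 and 0.21. Whether these stretches differ in copy number between the clones was not tested.

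The pathway around the members was described with 85 further genes of the human tables, in 9 lists by function. In ΔDNMT3A against WT, 42 of the 83 tested rose and 21 fell, beside 31.2% and 31% of all genes, at a median log2 fold change of 0.09. In DNMT3A1 against WT 40 of 84 rose and 26 fell, beside 32.6% and 32.7% of all genes. In the line labelled DNMT3A2 against WT 44 of 83 rose and 28 fell, beside 34.3% and 34.4% of all genes. The medians were 0.08 and 0.15. In the list of 10 genes of the ATF4 stress response, 8 rose and 0 fell in DNMT3A1 against WT, where 32.6% of all genes rose, and 10 rose and 0 fell in the line labelled DNMT3A2 against WT, where 34.3% did.

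Among the 12 regulators and partners of NRF2, 6 rose and 5 fell in ΔDNMT3A against WT, where 31.2% of all genes rose and 31% fell. SQSTM1, the autophagy receptor p62 that sequesters KEAP1 and is itself an NRF2 target, rose in ΔDNMT3A. It was at 276 to 294 CPM in WT and 489 to 527 in ΔDNMT3A, a log2 fold change of 0.81 ± 0.03 (adjusted p = 1.53e-17). It was at 351 to 359 CPM in DNMT3A1 and 446 to 456 in the line labelled DNMT3A2, an order of lines like that of HMOX1.

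Of the 12 genes of the glutathione system, 3 rose and 8 fell in DNMT3A1 against ΔDNMT3A, where 30.4% of all genes rose and 30.3% fell. The rises were led by GPX2, the glutathione peroxidase of the gut epithelium, at 32.3 to 36.5 CPM in ΔDNMT3A and 80.4 to 84.3 in DNMT3A1 (log2 fold change 1.26 ± 0.05, adjusted p = 8.61e-15), and by SLC7A11, the cystine transporter, at 98.2 to 108 and 200.1 to 209 CPM (1.01 ± 0.03, adjusted p = 2.24e-15). The glutaredoxins GLRX and GLRX2 fell by 1.05 ± 0.09 and 0.88 ± 0.07 on the log2 scale (adjusted p = 2.68e-09 and 7.11e-10). Rises in this list were not particular to DNMT3A1: its highest value in the line labelled DNMT3A2 against ΔDNMT3A was 1.40. SLC7A11 is also a target of ATF4, and the part of ATF4 in its rise was not tested. The median of the ATF4 list was 0.39 in DNMT3A1 against ΔDNMT3A, beside 0.01 over all genes tested. For the line labelled DNMT3A2 against ΔDNMT3A that median was 0.47, beside 0.00364. In the line labelled DNMT3A2 against WT the median of the ATF4 list was 0.48. There DDIT4, an inhibitor of mTORC1, was at 263 to 283 CPM against 84.3 to 94.7 in WT (1.58 ± 0.03, adjusted p = 1.05e-27). In ΔDNMT3A against WT the ATF4 list held 6 genes that rose and 3 that fell, where 31.2% of all genes rose and 31% fell. Asparagine synthetase, ASNS, was among those of the list that fell, by 0.64 ± 0.03 (adjusted p = 1.29e-15).

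The widest differences lay among the enzymes of quinone and carbonyl reduction. AKR1C1, AKR1C2 and AKR1C3, aldo-keto reductases that are classical NRF2 targets, were at 81.6 to 86.1, 148 to 152 and 314 to 334 CPM in the line labelled DNMT3A2 and at 16.7 to 18.2, 16.1 to 19.7 and 103 to 115 CPM in WT. Their log2 fold changes were 2.23 ± 0.04, 3.02 ± 0.04 and 1.57 ± 0.03 (adjusted p = 9.89e-29, 6.99e-32 and 8.63e-28). The 3 genes are related in sequence, so reads could be split between them and the share of each is uncertain. Their relatives outside that cluster moved the other way in this line: AKR1B10 fell by 1.04 ± 0.12 and AKR1B1 by 0.82 ± 0.04 against WT (adjusted p = 3.08e-09 and 5.96e-17). These directions were not particular to this line. Against WT, AKR1C2 was at 0.96 ± 0.05 in ΔDNMT3A and 1.61 ± 0.06 in DNMT3A1 on the log2 scale. AKR1B1 was at -0.45 ± 0.04 and -0.93 ± 0.05 in the same comparisons. ALDH3A1, an aldehyde dehydrogenase, was higher in DNMT3A1 than in the line labelled DNMT3A2, by 1.20 ± 0.13 (adjusted p = 1.52e-08).

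Downstream of HMOX1, BLVRA, which turns biliverdin into bilirubin, rose in ΔDNMT3A, at 35.7 to 38.1 CPM against 16.1 to 17.9 in WT (1.09 ± 0.05, adjusted p = 7.76e-16). Unlike HMOX1 it was lower again in the line labelled DNMT3A2, at 21.7 to 24.9 CPM, -0.69 ± 0.05 against ΔDNMT3A (adjusted p = 8.94e-12). SLC40A1, the iron exporter ferroportin, fell in ΔDNMT3A by 0.59 ± 0.03 and in the line labelled DNMT3A2 by 1.14 ± 0.03 against WT (adjusted p = 1.04e-13 and 6.35e-25). HMOX2, the constitutive heme oxygenase, fell by 0.63 ± 0.05 in DNMT3A1 against ΔDNMT3A (adjusted p = 3.52e-09). Against WT the fall was not of that size: the lowest value of the heme and iron list, which holds HMOX2, was -0.13 in DNMT3A1. ABCC2, the exporter of glutathione conjugates and bilirubin glucuronides, fell by 0.86 ± 0.03 in the line labelled DNMT3A2 against ΔDNMT3A (adjusted p = 3.81e-18). In that line against WT, the lowest value of the list of other NRF2 targets, which holds ABCC2, was -0.19.

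**Figure D3:**
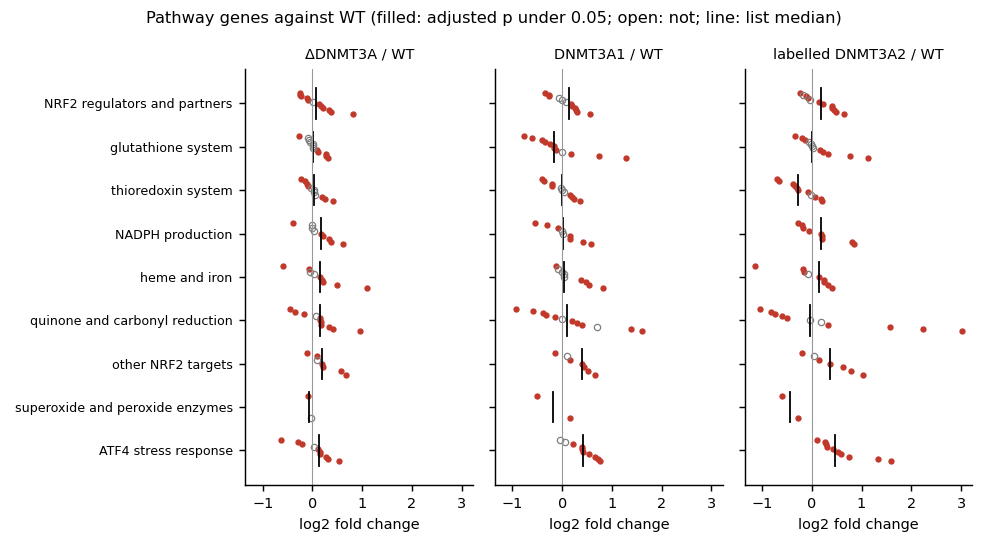
Log2 fold change against WT (x axis) of the pathway genes tested (points) in 9 lists by function (y axis), in ΔDNMT3A, DNMT3A1 and the line labelled DNMT3A2; filled points passed an adjusted p under 0.05, open points did not, and the vertical line is the list's median. The points of the line labelled DNMT3A2 reached furthest for AKR1C2, at 3.02. In that line the list medians ran from -0.44 for the 2 superoxide and peroxide enzymes to 0.48 for the ATF4 stress response.

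Over the 15 Caco-2 libraries, the 3 genes whose levels followed a member most closely were IRF8, TBC1D9B and ZNF593 (Pearson r of 0.99 to 1.00) for HMOX1, AXIN2, FLRT3 and ACSL4 (Pearson r of 0.99) for NQO1 and GSTP1, NUPR1 and CD24 (Pearson r of 0.99) for ME1. For GCLC they were PXK, USP28 and IVNS1ABP (Pearson r of 0.99) and for TXNRD1 SNX10, SALL4 and HECW2-AS1 (Pearson r of 0.98 to 0.99). For GCLM they were USP48, a gene without a symbol in the names used here and ABCC9, for OSGIN1 TRIM26, PSMD3 and CDC37 (Pearson r of 0.95 to 0.97) and for SRXN1, with the weakest likeness, TIGD5, FOXC1 and ITPKA (Pearson r of 0.84 to 0.90). These are descriptions: the 15 libraries fall into 4 lines, so that r is set largely by 4 levels.

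In mouse colonic epithelium none of the 9 members passed the test between Dnmt3a ΔIEC and Dnmt3a fl/fl (edgeR's quasi-likelihood test). At an unadjusted p under 0.05 there were 3 of 9, beside 14.1% of all genes. After adjustment 0.691% of all genes tested passed with edgeR, and DESeq2 called 0 members and 2.19% of the 16010 genes to which it gave an adjusted p. The groups overlapped for every member, while they did not overlap for 10.3% of all genes. In bulk RNA of sorted cells, fewer cells of a type and less RNA per cell cannot be told apart. Dnmt3a fl/fl replicate 2 stood apart from its group: its summed hemoglobin level was 52.4 CPM against 3.02 to 17.7 in the other 7 libraries, and 5 of the members were lowest in it. The 6 lymphocyte markers summed to 2.68 to 3.81 CPM in Dnmt3a fl/fl and 5.26 to 6.55 in Dnmt3a ΔIEC, with the groups apart, and the 8 macrophage markers to 17.5 to 22.9 and 17.5 to 22.1, with the groups overlapping and Adgre1 at 0 in Dnmt3a ΔIEC. Their part in the values below was not tested.

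Hmox1 differed most between animals. It was at 32.5, 2.68, 18.002 and 4.25 CPM in Dnmt3a fl/fl and 5.32, 3.93, 3.15 and 3.23 in Dnmt3a ΔIEC. Replicates 1 and 3 of the control group were high and the other 2 lay at the level of the ΔIEC animals. The log2 fold change was -1.87 ± 0.65 (ΔIEC against fl/fl), -1.08 without fl/fl replicate 1 and -2.21 without fl/fl replicate 2.

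Nqo1 was at 59.3, 17.4, 54.3 and 45.02 CPM in Dnmt3a fl/fl and 78.1, 64.6, 54.3 and 55.9 in Dnmt3a ΔIEC. Me1 was at 27.8, 8.40, 30.6 and 23.8 CPM in Dnmt3a fl/fl and 25.8, 30.1, 28.3 and 29.9 in Dnmt3a ΔIEC. For both, fl/fl replicate 2 was far below all other libraries. The log2 fold change of Nqo1 was 0.52 ± 0.30 with it and 0.26 without it, and that of Me1 0.33 ± 0.30 and 0.05.

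Gclc was at 261, 169.6, 263 and 192 CPM in Dnmt3a fl/fl and 182, 147, 149.6 and 182 in Dnmt3a ΔIEC (-0.42 ± 0.16), with the highest values in fl/fl replicates 1 and 3, the animals with the most Hmox1. Gclm, at 88.8, 65.4, 94.7 and 79.7 CPM in Dnmt3a fl/fl and 92.2, 85.03, 97.1 and 104 in Dnmt3a ΔIEC, had a log2 fold change of 0.20 ± 0.12. Nfe2l2 was at 201, 148, 195 and 196 CPM in Dnmt3a fl/fl and 177, 192, 196 and 191 in Dnmt3a ΔIEC (0.03 ± 0.11). In fl/fl replicate 2 both Nfe2l2 and Gclm were at their lowest, and without it their log2 fold changes were -0.07 and 0.11.

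Txnrd1 was at 352, 330.4, 355 and 315 CPM in Dnmt3a fl/fl and 300.4, 306, 299 and 382 in Dnmt3a ΔIEC (-0.07 ± 0.11), and Srxn1 was at 174, 193, 179 and 178 CPM in Dnmt3a fl/fl and 140.1, 175, 198 and 255 in Dnmt3a ΔIEC (0.09 ± 0.16). ΔIEC replicate 4 had the highest level of both, and without it Txnrd1 stood at -0.16 and Srxn1 at -0.08 on the log2 scale. Osgin1, at 60.7, 66.7, 46.2 and 57.4 CPM in Dnmt3a fl/fl and 41.6, 39.4, 46.8 and 51.3 in Dnmt3a ΔIEC, had a log2 fold change of -0.37 ± 0.13, with fl/fl replicate 3 inside the range of the ΔIEC animals. Per length, Txnrd1 was the most abundant member in both mouse groups, at 98.95 ± 5.54 RPKM in Dnmt3a fl/fl, and Srxn1, the lowest member in Caco-2, was at 64.1 ± 2.94 RPKM. The mouse tables were counted without regard to strand, and Gclm and Me1 each overlap a gene on the opposite strand, at a mean of 2.23 and 0.131 CPM.

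**Figure D4:**
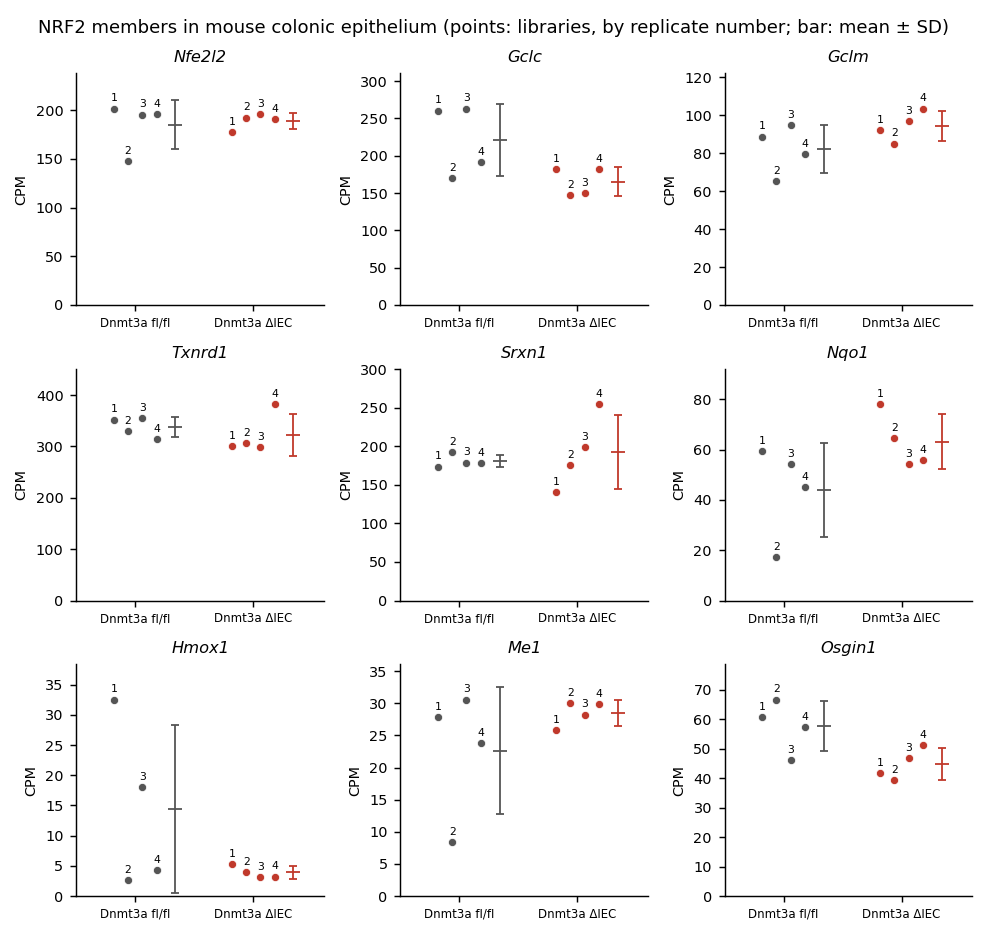
Level in CPM (y axis, from 0) of each member in Dnmt3a fl/fl and Dnmt3a ΔIEC; each point is an animal, marked with its replicate number, and the bar is the mean ± SD. The groups overlapped in every panel, and fl/fl replicate 2 lay below all others for Nfe2l2, Gclm, Nqo1, Hmox1 and Me1.

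Of the 76 pathway genes tested in the mouse, Blvrb, a biliverdin and flavin reductase, was alone in passing. It was at 21.6 to 27.2 CPM in Dnmt3a fl/fl and 32.7 to 40.1 in Dnmt3a ΔIEC, a log2 fold change of 0.54 ± 0.10 (adjusted p = 0.048); without any 1 of the 8 libraries it kept its direction and no longer passed. Keap1 was at 42.2 to 62.7 and 49.6 to 60.2 CPM. At an unadjusted p under 0.05 there were 16 of the 76, beside 14.1% of all genes, and DESeq2 called 2 of 76, beside 2.19% of all genes.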

How the data were processed

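Caco-2 RNA was sequenced as paired 75-base reads and mouse RNA as paired 50-base reads. According to the study's methods and the submitters' processing notes, reads were trimmed with Trim Galore 0.4.4 and aligned with STAR 2.5.2b to GRCh38 or GRCm38, and the authors deposited raw counts per gene. Per the file headers, featureCounts 1.5.2 counted the human reads on the reverse strand and featureCounts 1.6.4 the mouse reads without strand. A header of each table also gives exon length, used for RPKM.

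From these counts, each comparison was fitted on its own groups with edgeR 4.0.16 (R 4.3.3): filterByExpr, TMM factors, quasi-likelihood F test, Benjamini-Hochberg adjustment over all genes tested, threshold 0.05. The SE is the log2 fold change divided by the root of F. CPM uses TMM library sizes. Human identifiers were given symbols from the reference table (41445 of 58051). Pathway genes were named from the 3 at each end of a comparison with the largest change. These had to pass the threshold, with groups that did not overlap and a mean of at least 1 CPM. Not all of these genes are named. KEAP1, and AKR1C3 in the line labelled DNMT3A2 against WT, were named outside this rule. Alternatives were DESeq2 1.42.0, other scalings, no filter, the 4 Caco-2 groups in 1 fit, the replicate number as a block, and each library left out. Members and gene lists were chosen with earlier results of these data known. The script was tested on simulated data. The total counts per library limit the precision as given; DNMT3A1 replicate 3 is not analysed here. No libraries differed by less than the sampling noise. The genes most like NFE2L2 are not reported here.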

Additional observations from a re-analysis of the deposited data

Results flagged for a closer look

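Among 45 groups of 4 libraries tested, of which chance would set apart about 1 in 20, a single library lay far from the others of its group in 2. Nfe2l2 was at 148 CPM in Dnmt3a fl/fl replicate 2 and at 195 to 201 CPM in the other 3 animals. Txnrd1 was at 382 CPM in Dnmt3a ΔIEC replicate 4 and at 299 to 306 CPM in the other 3.

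The isoform lines differed for 7 members in the direct fit of DNMT3A1 against the line labelled DNMT3A2, in which their common ΔDNMT3A reference drops out. The members were chosen with these values known, so no p is given. On the log2 scale DNMT3A1 minus the line labelled DNMT3A2 was 0.17 ± 0.03 for NFE2L2, -0.24 ± 0.03 for GCLC, -0.29 ± 0.05 for GCLM, -1.02 ± 0.03 for NQO1, -0.73 ± 0.04 for HMOX1, -0.48 ± 0.03 for ME1 and -0.64 ± 0.07 for OSGIN1. Most genes differ between these clones, with 68.5% of all genes tested past the threshold, and isoform and clone cannot be told apart.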

How the results depend on the processing

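No result changed its direction under any alternative that passed the threshold in both settings. Of the counts and medians, 280 values stayed within the bounds set and 17 moved, all of the latter in the mouse. All genes past the threshold in the mouse numbered 101, and 351 with the DESeq2 Wald test, which gave 16010 genes an adjusted p where edgeR tested 14626; leaving out 1 library gave 45 to 126. The lower counts came without Dnmt3a ΔIEC replicate 2 (57) or 3 (45) and without Dnmt3a fl/fl replicate 1 (57), 3 (55) or 4 (61). Pathway genes past the threshold in the mouse numbered 1 (Blvrb), 0 with DESeq2 size factors in edgeR, 0 with total counts, 2 with the DESeq2 Wald test, and 0 to 0 when any 1 library was left out; the causes were not tested. No member was called in the mouse under any of the 12 alternatives.

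With total counts in place of TMM, 16 member values in Caco-2 moved by more than the spread between libraries, each keeping its sign and call. Replicate numbers were not taken to pair the Caco-2 samples: the deviations of same-numbered libraries correlated between -0.109 and 0.108 over 21 pairs, and 1 pair was over 0.1. The replicate number as a block left the count of genes called within 1.5 times in every comparison (10043 against 10231 in DNMT3A1 against ΔDNMT3A); among members it took the call of TXNRD1 in DNMT3A1 against ΔDNMT3A and gave that of OSGIN1 in the line labelled DNMT3A2 against ΔDNMT3A. SRXN1 had the lowest depth of the members in Caco-2, 37 to 192 counts in a library.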
